A study of Mus musculus with 6 samples.

Results

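The NF-kappaB subunits and their inhibitors are 10 genes of the count table, chosen by name out of 14515 gene rows: the subunit genes Nfkb1, Nfkb2, Rel, Rela and Relb, and the inhibitor genes Nfkbia, Nfkbib, Nfkbie, Nfkbiz and Tnfaip3. All 10 were in the table and all 10 passed the low-count filter. They were followed in naive CD8 T cells sorted from spleens of 3 LAIR-1-deficient (Lair1-/-) and 3 wild type (Lair1+/+) mice, 100000 cells per mouse by a flow cytometry gate on CD45, CD8 and CD3, with CD44-positive cells left out among other criteria, and with total RNA sequenced as 1 library per mouse. Neither group was treated. The labels give no strain, age or sex, do not say which part of Lair1 the allele removes, and number the mice 1 to 3 in each genotype without saying that an equal number marks a shared litter, batch or day. LAIR-1 is an inhibitory collagen receptor of leukocytes, and the comparison asks whether its loss changes resting cells.

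NF-kappaB is a family of dimeric transcription factors. In resting cells the dimers are held in the cytoplasm by IkappaB proteins. T cell receptor, costimulatory and tumour necrosis factor receptor signals activate IkappaB kinase, IkappaB is degraded, and the freed dimers enter the nucleus. Several of the genes they switch on encode their own inhibitors, among them Nfkbia and Tnfaip3, which closes a negative feedback loop.

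The promoters are shown because a feedback gene of this kind can carry the factor's own binding motif near its start. RefSeq promoter windows (GRCm38.p6, 250 bases before to 50 after a start, 300 in all) were matched by symbol for 7 of the 10 genes, as 10 windows: Nfkb2 (3 windows), Tnfaip3 (2), Rel, Rela, Nfkbia, Nfkbib and Nfkbie. The Nfkbia window is chr12:55492598-55492897 on the minus strand, the Tnfaip3 window printed is chr10:19015361-19015660 on the minus strand, the Rel window is chr11:23770920-23771219 on the minus strand, and the Nfkb2 window printed is chr19:46304487-46304786 on the plus strand. Each sequence runs 5′ to 3′ along the gene's strand, with matches to the kappaB consensus decamer, on either strand, in capitals.
Nfkbia: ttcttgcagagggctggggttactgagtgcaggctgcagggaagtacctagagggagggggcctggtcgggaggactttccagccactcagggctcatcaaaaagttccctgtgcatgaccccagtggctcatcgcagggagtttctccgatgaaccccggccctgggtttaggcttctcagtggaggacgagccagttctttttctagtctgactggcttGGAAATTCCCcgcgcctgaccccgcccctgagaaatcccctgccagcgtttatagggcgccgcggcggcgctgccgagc
Tnfaip3: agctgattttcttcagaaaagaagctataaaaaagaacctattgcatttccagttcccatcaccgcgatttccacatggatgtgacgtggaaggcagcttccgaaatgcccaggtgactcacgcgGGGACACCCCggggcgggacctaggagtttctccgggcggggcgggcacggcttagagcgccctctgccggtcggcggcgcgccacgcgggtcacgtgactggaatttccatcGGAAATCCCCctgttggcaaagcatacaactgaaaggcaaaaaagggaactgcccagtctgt
Rel: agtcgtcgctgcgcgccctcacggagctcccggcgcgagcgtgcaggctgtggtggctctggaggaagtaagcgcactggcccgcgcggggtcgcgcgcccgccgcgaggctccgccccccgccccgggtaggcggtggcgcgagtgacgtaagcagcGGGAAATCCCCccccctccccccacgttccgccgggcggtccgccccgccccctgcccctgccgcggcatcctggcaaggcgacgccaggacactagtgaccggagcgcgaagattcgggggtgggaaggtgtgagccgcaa
Nfkb2: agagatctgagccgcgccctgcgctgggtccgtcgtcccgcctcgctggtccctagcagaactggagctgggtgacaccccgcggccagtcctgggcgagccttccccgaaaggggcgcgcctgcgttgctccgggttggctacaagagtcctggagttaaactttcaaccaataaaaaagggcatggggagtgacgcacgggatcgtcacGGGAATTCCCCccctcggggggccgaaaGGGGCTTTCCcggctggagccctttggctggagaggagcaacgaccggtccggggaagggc

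The Nfkbia match, GGAAATTCCC, begins 29 bases before the start, and the matches in the printed Tnfaip3 window begin 125 and 12 bases before it, while the other Tnfaip3 window has 0 matches. Rel has 2 overlapping matches that begin 92 and 91 bases before the start. In the printed Nfkb2 window 2 overlapping matches begin 39 and 38 bases before the start, and another, GGGGCTTTCC, begins 11 bases before it. At least 1 match was in 7 of the 10 windows, which belong to 5 of the 7 genes, the exceptions being Rela and Nfkbib. Over all 32851 promoter windows the share with a match was 8.46%. The AP-1 heptamer TGANTCA was in 3 of the 10 windows, against 7.81% of all windows, and the CRE octamer TGACGTCA in 0 of the 10, against 1.79%. Windows of Nfkb2 overlap in part, and a match describes letters only.

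The libraries held 5519748 to 7296424 counts in LAIR-1-deficient mice and 7974206 to 9187017 counts in wild type mice, so every LAIR-1-deficient library was shallower than every wild type library. Lair1 had 4 counts in all in the LAIR-1-deficient libraries and 133 in the wild type libraries, and it was the only one of 9565 genes tested that passed edgeR's quasi-likelihood test (adjusted p = 0.00255). Of the markers of the sorted cells, all 12 genes of the CD8 T cell list were tested, and their summed level was 9528 to 10331 CPM in LAIR-1-deficient and 9756 to 10296 CPM in wild type libraries. Cd4, which defines the other T cell lineage, was at 0 to 2.46 CPM in LAIR-1-deficient and at 0.547 to 1.68 CPM in wild type libraries. Levels are CPM, counts relative to a library's size after TMM scaling. They are compared between libraries and never between genes, because the sources used here do not say whether counts scale with transcript length.

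None of the 10 genes passed the test between the genotypes. In edgeR's quasi-likelihood test 0 of 10 passed at an adjusted p of 0.05, where 0.0105% of all tested genes passed, and every member had an adjusted p of 0.9999. An unadjusted p under 0.05 was reached by 0 of the 10, against 3.25% of all genes, and DESeq2 and limma-voom also called 0 of the 10. The LAIR-1-deficient and wild type values overlapped for all 10, while they did not overlap for 8.38% of all genes (4.30% with the LAIR-1-deficient values on top and 4.09% with them below). Of the fold changes 6 were positive and 4 negative, with a median log2 fold change of 0.02 for the members and 0.00 for all genes. In bulk RNA, fewer cells that express a gene and less RNA per cell cannot be told apart.

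The members were of several kinds, genes whose level hardly varied from mouse to mouse and genes whose level varied severalfold. Nfkb1 (chr3:135584655-135691547, minus strand; gene coordinates are GRCm38), which encodes a precursor processed to a DNA-binding subunit, was the steadiest. It was at 190.4, 186 and 190.0 CPM in LAIR-1-deficient mice 1 to 3, and at 185, 192 and 189 CPM in wild type mice 1 to 3. The highest library was 1.04 times the lowest, and only 0.115% of tested genes had a smaller SD of log2 CPM within genotypes. Its means were 189 ± 2.41 CPM in LAIR-1-deficient and 189 ± 3.55 CPM in wild type cells (SD, n = 3 each), and the 95% interval of the fold change ran from 0.878 to 1.14.

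Rela (chr19:5637483-5648130, plus strand), the subunit with a transactivation domain that pairs with the Nfkb1 product in the classical dimer, was also even. It was at 54.3, 47.3 and 54.1 CPM in LAIR-1-deficient mice 1 to 3, and at 52.7, 51.2 and 44.5 CPM in wild type mice. The groups overlap, with a log2 fold change of 0.07 (SE 0.12) and a 95% interval of the fold of 0.881 to 1.25. The count of Rela per count of Nfkb1, which needs no scaling between libraries, lay between 0.254 and 0.285 in LAIR-1-deficient and between 0.236 and 0.284 in wild type libraries.

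The subunits of the noncanonical branch were Nfkb2 (chr19:46304320-46312385, plus strand), a precursor processed after NF-kappaB-inducing kinase is stabilised, and Relb (chr7:19606217-19629438, minus strand), its partner. Nfkb2 was at 62.0, 61.4 and 56.5 CPM in LAIR-1-deficient mice 1 to 3 and at 65.1, 55.4 and 57.0 CPM in wild type mice, with means of 59.9 ± 3.02 CPM in LAIR-1-deficient and 59.1 ± 5.20 CPM in wild type cells (SD, n = 3 each). Relb was at 23.6, 17.4 and 17.2 CPM in LAIR-1-deficient mice and at 23.3, 19.4 and 17.8 CPM in wild type mice. For Relb the highest value of each genotype was that of mouse 1, and mice 2 and 3 were close together. The 95% intervals of the fold were 0.858 to 1.20 for Nfkb2 and 0.755 to 1.24 for Relb. Exons of Nfkb2 overlap exons of Psd on the opposite strand and those of Nfkbib overlap exons of Sirt2 on the opposite strand. The strand setting of the counting is not given, so reads in the shared stretches may not have been told apart. The extent of the overlap was not measured.

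Rel (chr11:23736847-23770970, minus strand) encodes c-Rel, a subunit with a major role in lymphocyte activation. It was the least deeply counted member, with 43, 9 and 37 counts in LAIR-1-deficient mice 1 to 3 and 37, 39 and 28 counts in wild type mice. That gave 6.20, 1.60 and 5.06 CPM in LAIR-1-deficient and 4.67, 4.27 and 3.14 CPM in wild type libraries. LAIR-1-deficient mouse 2, the shallowest library (5519748 counts), had the lowest value. Its exact Poisson 95% interval, 0.732 to 3.04 CPM, overlapped that of the next lowest, wild type mouse 3, at 2.09 to 4.54 CPM. Intervals from counts cover counting error only. The log2 fold change was 0.12 (SE 0.38) with all libraries and 0.48 without LAIR-1-deficient mouse 2, and the 95% interval of the fold, 0.620 to 1.91, is wider than that of any other subunit.

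Among the inhibitors, Nfkbib (chr7:28758251-28767512, minus strand) and Nfkbie (chr17:45555703-45563169, plus strand), which encode IkappaB proteins that retain dimers in the cytoplasm, varied less between libraries than the 3 other inhibitors. The highest library was 1.30 times the lowest for Nfkbib and 1.66 times the lowest for Nfkbie. Nfkbib was at 85.0, 72.9 and 74.6 CPM in LAIR-1-deficient mice 1 to 3 and at 83.4, 65.5 and 76.5 CPM in wild type mice, a log2 fold change of 0.05 (SE 0.12). Nfkbie was at 9.23, 8.004 and 13.3 CPM in LAIR-1-deficient mice and at 11.6, 11.4 and 10.9 CPM in wild type mice. Its wild type libraries were nearly equal and lay inside the range of the LAIR-1-deficient libraries, which rested on 45 to 97 counts. The log2 fold change of Nfkbie was -0.14 (SE 0.21), with a 95% interval of the fold of 0.670 to 1.23.

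**Figure D1:**
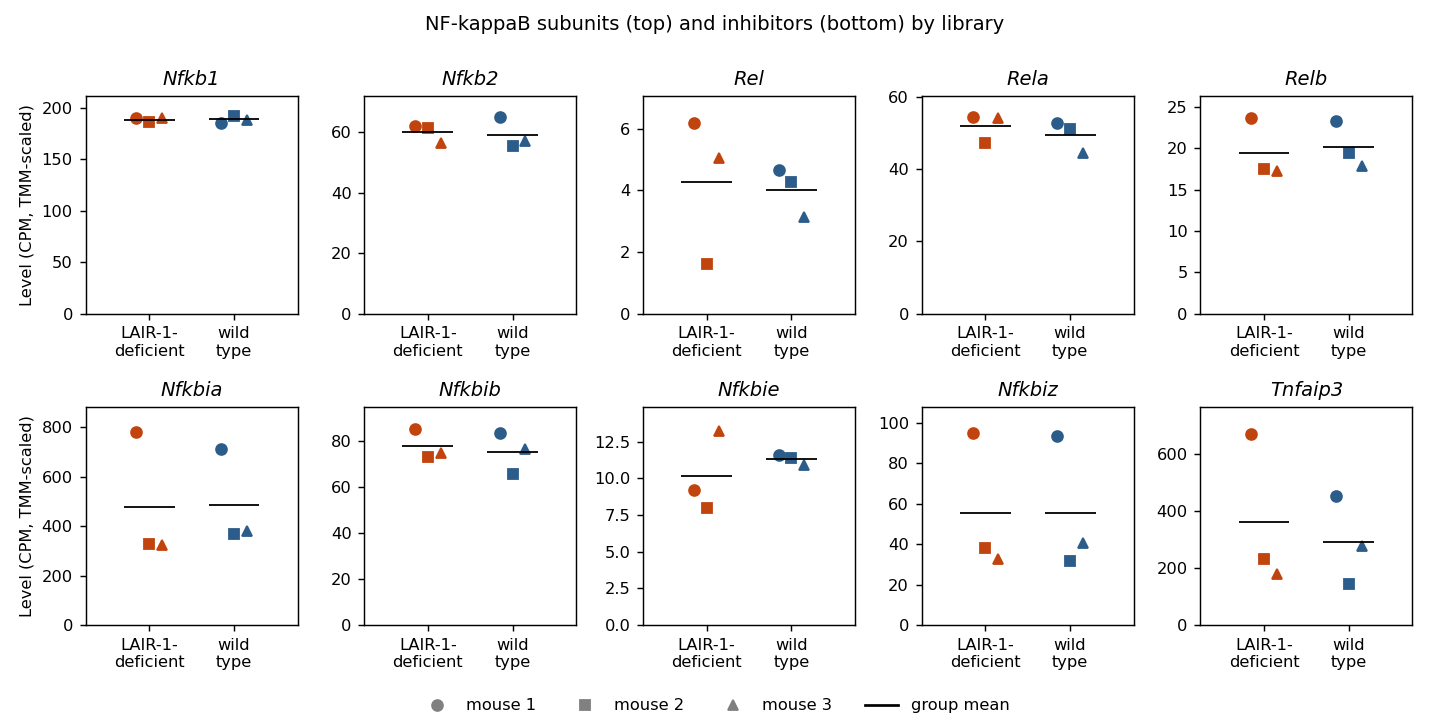
Level of each of the 10 genes in every library, in TMM-scaled CPM on a linear axis that starts at 0; subunits are in the upper row and inhibitors in the lower row, with LAIR-1-deficient left of wild type, symbols for mouse 1, 2 and 3, and a bar at the group mean. Nfkb1 lies between 185 and 192 CPM in all 6 libraries, while Nfkbia, Nfkbiz and Tnfaip3 are highest in mouse 1 of both genotypes.

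The other inhibitors were the variable ones. Nfkbia (chr12:55489410-55492647, minus strand), the main feedback IkappaB, was at 780.0, 329 and 324 CPM in LAIR-1-deficient mice 1 to 3 and at 711, 368 and 381 CPM in wild type mice. The mouse 1 libraries of both genotypes were high, and the remaining 4 libraries were low and close together. The means were 477 ± 262 CPM in LAIR-1-deficient and 486 ± 194 CPM in wild type cells (SD, n = 3 each), and the log2 fold change was -0.03 (SE 0.52).

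Nfkbiz (chr16:55811375-55838899, minus strand) encodes an atypical nuclear IkappaB that acts as a cofactor of NF-kappaB dimers. It was at 94.99, 38.2 and 32.8 CPM in LAIR-1-deficient mice 1 to 3 and at 93.6, 31.6 and 40.6 CPM in wild type mice. Both mouse 1 values are more than 2-fold above every other library. Its means were equal to 3 digits, 55.3 ± 34.4 in LAIR-1-deficient and 55.3 ± 33.5 CPM in wild type cells (SD, n = 3 each).

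Tnfaip3 (chr10:19000910-19015657, minus strand) encodes a ubiquitin-editing enzyme that shuts off signalling upstream of IkappaB kinase, and it had the widest spread of the members. It was at 671, 233 and 179 CPM in LAIR-1-deficient mice 1 to 3 and at 453, 143 and 278 CPM in wild type mice. Mouse 1 was again highest in each genotype, but here the remaining libraries also differed among themselves, and the highest library was 4.70 times the lowest. The log2 fold change was 0.31 (SE 0.74), and the 95% interval of the fold reached from 0.305 to 5.06.

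**Figure D2:**
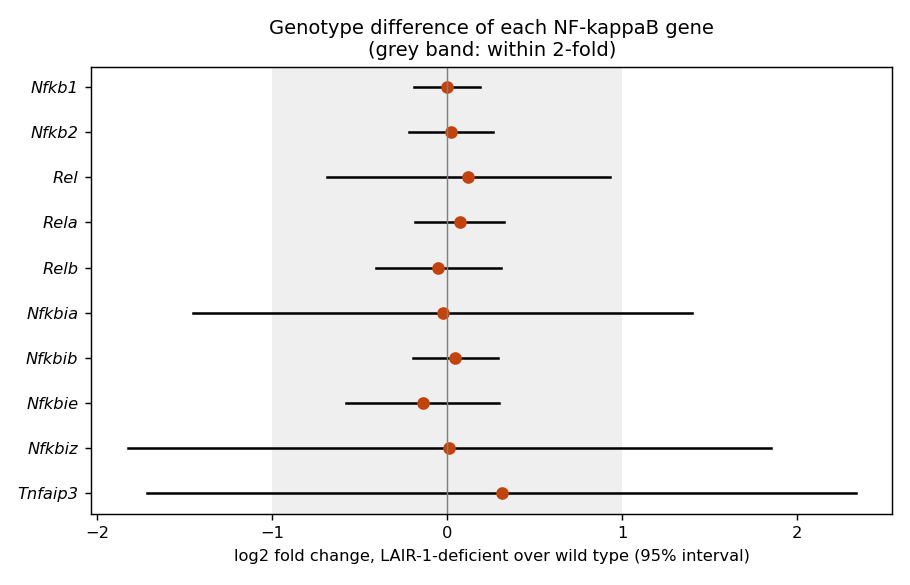
Log2 fold change of each gene, LAIR-1-deficient over wild type, from edgeR's quasi-likelihood fit over all 6 libraries, with its 95% interval; the grey band marks differences within 2-fold. The intervals of 7 genes lie inside the band, and those of Nfkbia, Nfkbiz and Tnfaip3 extend beyond it on both sides. These widths depend on the robust setting of the fit.

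With the robust setting of edgeR's quasi-likelihood test, the width of the interval separated the members at n = 3. The 95% interval lay within 2-fold either way for 7 of 10 members, against 85.9% of all tested genes, and within 1.5-fold for 6 of 10, against 63.2% of all. The 6 were Nfkb1, Nfkb2, Rela, Relb, Nfkbib and Nfkbie, and Rel was the other one within 2-fold. For Nfkbia, Nfkbiz and Tnfaip3 the interval over all 6 libraries included 2-fold differences in both directions. These widths depend on the robust setting of edgeR's quasi-likelihood test. Without it the fold changes were the same, but the unadjusted p was 0.934, 0.977 and 0.481, against 0.963, 0.987 and 0.695 with it. A smaller p at the same fold change goes with a narrower interval. Interval widths were not computed without the robust setting, so whether these intervals would still include 2-fold differences is not known. Nfkbia and Tnfaip3 had at least 1305 counts in every library. The SD of log2 CPM within genotypes was 0.64 for Nfkbia, 0.82 for Nfkbiz and 0.93 for Tnfaip3, above that of 95.9%, 98.6% and 99.01% of tested genes.

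Ratios within a library show the same division without any scaling. Nfkbia had 4.10, 1.77 and 1.70 counts per count of Nfkb1 in LAIR-1-deficient mice 1 to 3, and 3.83, 1.91 and 2.02 in wild type mice. For Nfkbiz the ratios were 0.499, 0.206 and 0.173 in LAIR-1-deficient mice and 0.505, 0.164 and 0.215 in wild type mice. Those of Tnfaip3 were 3.53, 1.25 and 0.940 in LAIR-1-deficient mice and 2.44, 0.742 and 1.47 in wild type mice. For each of these genes the exact binomial 95% intervals of both mouse 1 libraries lie above the intervals of the 4 other libraries. The inhibitors did not keep a fixed proportion to each other: Nfkbia per count of Tnfaip3 was between 1.16 and 1.81 in LAIR-1-deficient and between 1.37 and 2.57 in wild type libraries.

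**Figure D3:**
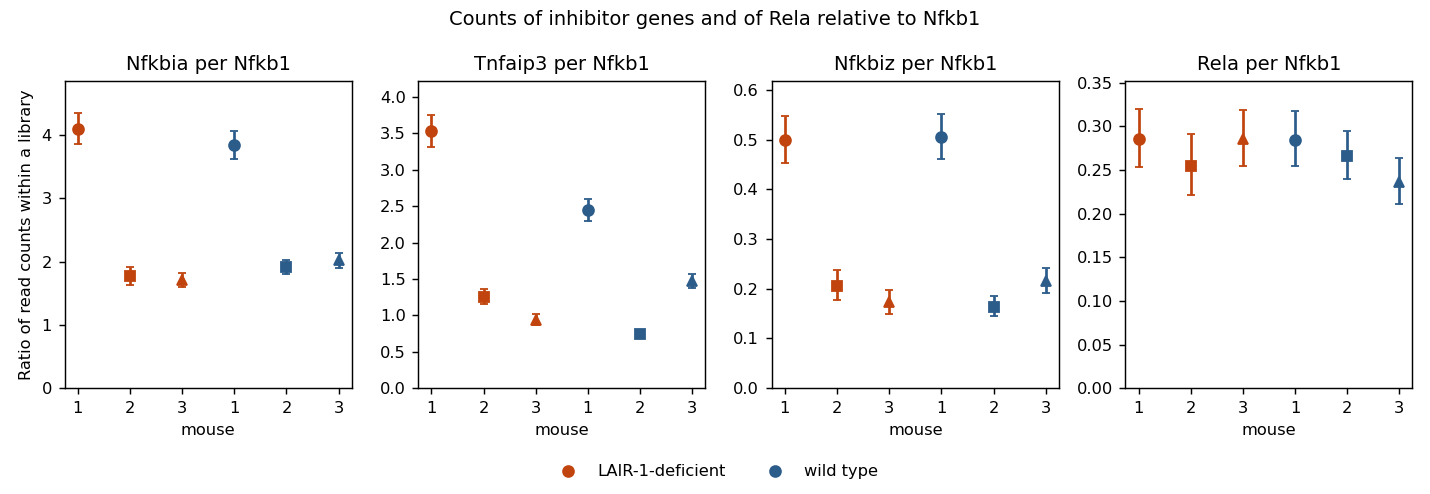
Read counts of Nfkbia, Tnfaip3, Nfkbiz and Rela divided by those of Nfkb1 in the same library, for mice 1 to 3 of each genotype, with exact binomial 95% intervals that cover counting error only; axes are linear and start at 0. The mouse 1 ratio of Nfkbia is 4.10 in LAIR-1-deficient and 3.83 in wild type cells, and the others are 1.70 to 2.02, while Rela per Nfkb1 stays between 0.236 and 0.285.

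Both libraries numbered mouse 1 lay above the 4 others for 6 of the 10 members, where this held for 11.9% of all tested genes. These were Nfkbia, Nfkbiz, Tnfaip3, Nfkb2, Relb and Nfkbib, and it was 5 of 10 when libraries were scaled by their totals, where Nfkb2 had 62.5 CPM in LAIR-1-deficient mouse 2 and 61.1 CPM in LAIR-1-deficient mouse 1. Mouse 1 exceeded the mean of mice 2 and 3 by 2.39-fold for Nfkbia, 2.67-fold for Nfkbiz and 3.26-fold for Tnfaip3 in LAIR-1-deficient cells, and by 1.90-fold, 2.59-fold and 2.15-fold in wild type cells. Only 0.470% of all genes were highest in both mouse 1 libraries and over 2-fold higher in both genotypes, and Nfkbiz and Tnfaip3 are among them. For the other members the ratio was between 0.868 (Nfkbie) and 1.86 (Rel) in LAIR-1-deficient and between 0.972 (Nfkb1) and 1.26 (Rel) in wild type cells. The pattern was known from earlier results on these data and was not tested.

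Other measures of the same libraries stand beside this. The share of counts from the mitochondrial chromosome was 15.6%, 19.2% and 19.2% in LAIR-1-deficient mice 1 to 3 and 17.2%, 19.3% and 21.1% in wild type mice, lowest in mouse 1 of each genotype. Summed levels of 8 measured B cell markers were 40.1, 35.6 and 39.4 CPM in LAIR-1-deficient and 37.1, 35.8 and 39.3 CPM in wild type libraries. Those of 10 macrophage and monocyte markers, led by Ctss, were 205 CPM in mouse 1 and 216 to 218 CPM in mice 2 and 3 of the LAIR-1-deficient group, and 210.4 CPM in mouse 1 and 226 to 251 CPM in mice 2 and 3 of the wild type group. Of 7 markers of antigen-experienced T cells 5 were tested, and their summed level over the list was 126, 125 and 111 CPM in LAIR-1-deficient and 116, 121 and 115 CPM in wild type libraries. Among them Eomes was at 40.2, 58.7 and 49.6 CPM in LAIR-1-deficient and 38.1, 52.5 and 50.9 CPM in wild type mice. Eomes was lowest in mouse 1 of each genotype, while 1 of the 5 tested markers was highest in both mouse 1 libraries. The tested markers' median log2 CPM, each gene centred on its mean, was 0.40, -0.03 and -0.20 in LAIR-1-deficient mice 1 to 3. In wild type mice 1 to 3 that median was 0.01, -0.08 and 0.06. Cd44, named because the sort selected against its product, was at 21.8, 14.8 and 11.2 CPM in LAIR-1-deficient mice. In wild type mice it was at 11.98, 13.1 and 12.5 CPM. Cd44 was highest in LAIR-1-deficient mouse 1 but not in wild type mouse 1. The part of these markers in the spread of the members was not tested. Summed levels of dendritic, NK, neutrophil and platelet markers stayed under 6 CPM in every library, and those of erythroid markers were 26.9 to 141 CPM in LAIR-1-deficient and 34.3 to 168 CPM in wild type libraries, with mouse 1 not the highest of either genotype. Of the B cell markers 5 were tested, and Cd79b, with the most counts, had 77 to 110 in LAIR-1-deficient and 98 to 157 in wild type libraries. Ebf1 had 2 counts in all in LAIR-1-deficient and 9 in wild type libraries. Of the macrophage and monocyte markers 5 were tested. Ctss had 884 to 1013 counts in LAIR-1-deficient and 1120 to 1571 in wild type libraries, while Lyz2 had 1 count in each group. Whether other cell types were present among the sorted cells was not tested. Macrophage sums were lowest in mouse 1 of each genotype, and the part of the mitochondrial share in the spread of the members was not tested.

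Without mouse 1 of both genotypes, a setting chosen after the data were seen, none of the members passed either. The 95% interval narrowed for Nfkbia, Nfkbiz and Tnfaip3 and widened for the 7 others. Nfkbia then had LAIR-1-deficient values below both wild type values, with a log2 fold change of -0.20 (95% interval -0.40 to 0.00), an unadjusted p of 0.05003 and an adjusted p of 0.995 in edgeR's quasi-likelihood test. Relb was the other member without overlap, with a log2 fold change of -0.11 (-0.48 to 0.27). With fewer libraries per genotype, groups separate more easily, and the share of all genes without overlap was not computed for this setting. For Nfkbiz the log2 fold change was -0.03 (-0.37 to 0.30), which places the 95% interval of the fold within 0.776 to 1.23, while for Tnfaip3 it was -0.04 and the interval still ran from -1.78 to 1.70. Leaving out single libraries moved the direction of the variable genes. With LAIR-1-deficient mouse 1 left out, their log2 fold changes were -0.58 for Nfkbia, -0.64 for Nfkbiz and -0.51 for Tnfaip3, and with wild type mouse 1 left out they were 0.35 for Nfkbia, 0.62 for Nfkbiz and 0.78 for Tnfaip3.

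Genes whose profile over the 6 libraries was most like that of a variable member were ranked by the root mean square distance between log2 CPM profiles, each centred on its own mean. For Tnfaip3 the nearest of all other tested genes was Nfkbid, another nuclear IkappaB, at a distance of 0.20. Next came Tnf, which encodes the cytokine tumour necrosis factor (0.24), the member Nfkbiz (0.24), Ctla4, an inhibitory receptor (0.26), and Klf9 (0.26). Ctla4 rested on 11 to 44 counts per library. For Nfkbiz the nearest were Csrnp1 (0.10), Tgif1 (0.12), the clock gene Per1 (0.12), Nfkbid (0.14) and Tnf (0.14), and Nfkbia ranked 14 at 0.20. Nfkbid was at 442, 137 and 118 CPM in LAIR-1-deficient mice 1 to 3 and at 341, 113 and 146 CPM in wild type mice, so it too was highest in mouse 1 of each genotype. Rel stood apart. Its nearest genes, Mks1, Clcn2, Arl4d, Lysmd4 and 1 gene model without a symbol, all averaged 1.24 to 2.86 CPM in LAIR-1-deficient cells and were lowest in LAIR-1-deficient mouse 2, and the nearest member, Nfkbie, ranked 732.

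The rest of the pathway was called in neither direction, and the median fold change of each of the 7 lists described here changed sign with at least 1 single library left out. Of 21 genes of canonical activation, from receptor-proximal signalling to IkappaB kinase, 20 were tested, 0 passed, 8 were positive and 12 negative, and the median log2 fold change was -0.01. Ikbkb, the catalytic kinase subunit, was at 68.8, 70.4 and 68.1 CPM in LAIR-1-deficient and 65.7, 68.5 and 69.7 CPM in wild type mice, and was named after its values were seen. The genes with the smallest p were Tab1, an adaptor of the kinase TAK1 (3.39 ± 0.524 CPM in LAIR-1-deficient and 5.29 ± 1.38 CPM in wild type cells, SD, n = 3 each), and Traf6, a ubiquitin ligase, at 22.0 ± 4.74 CPM in LAIR-1-deficient and 26.2 ± 5.16 CPM in wild type cells. In this list 5 of 20 were highest in both mouse 1 libraries, against 11.9% of all tested genes, and 0 of those by over 2-fold in both genotypes. Genotype values did not overlap for 2 of the 20, against 8.38% of all tested genes.

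In the noncanonical list 7 of 9 genes were tested and 0 passed, with a median of 0.05. Map3k14, which encodes NF-kappaB-inducing kinase, was at 28.8, 16.7 and 15.9 CPM in LAIR-1-deficient and 18.4, 17.3 and 15.7 CPM in wild type mice. The receptor gene Tnfrsf13c was at 0.875 ± 0.637 CPM in LAIR-1-deficient and 1.48 ± 0.429 CPM in wild type cells, on 2 to 15 counts per library. Of the 6 other IkappaB-related genes 5 were tested and 0 passed, with a median of 0.12, which was -0.15 without LAIR-1-deficient mouse 1 and -0.066 without wild type mouse 2. Bcl3, a nuclear IkappaB that binds homodimers, was at 25.2, 35.8 and 27.6 CPM in LAIR-1-deficient and 23.5, 25.1 and 24.1 CPM in wild type mice. Its log2 fold change was 0.28, with an unadjusted p of 0.0751 in edgeR's quasi-likelihood test. Its groups do not overlap, which held for 1 of the 5 and for 8.38% of all tested genes. Nfkbil1 was at 4.93 ± 1.36 CPM in LAIR-1-deficient and 6.02 ± 1.07 CPM in wild type cells.

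Among 13 tested genes of ubiquitin editing and other brakes, 0 passed, 6 were positive and 7 negative. N4bp1, an RNA-binding regulator that restrains NF-kappaB signalling, was at 21.5, 28.3 and 21.5 CPM in LAIR-1-deficient and 14.8, 16.9 and 18.5 CPM in wild type mice. All LAIR-1-deficient values were above all wild type values. Groups without overlap were found for 1 of the 13, against 8.38% of all tested genes. The log2 fold change was 0.50 (SE 0.16), and the unadjusted p of 0.00670 did not survive adjustment (adjusted p 0.9999 in edgeR's quasi-likelihood test). Zc3h12a, the RNase Regnase-1, had the widest range of the list, at 147, 38.1 and 45.9 CPM in LAIR-1-deficient and 166, 38.3 and 48.0 CPM in wild type mice. Otud7b and Tnip2 had log2 fold changes of -0.28 and 0.27.

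Receptors and adaptors that signal to NF-kappaB had 17 tested genes, 0 called, 7 positive and 10 negative. Tnfrsf25, a death receptor family member, had a log2 fold change of -0.41 at an unadjusted p of 0.0471, and Cd28, the costimulatory receptor, one of 0.31. Tirap and Tnfrsf4 varied most. Tirap was at 1.504 to 6.34 CPM in LAIR-1-deficient and 2.52 to 4.71 CPM in wild type libraries, on 11 to 44 counts. Tnfrsf4 was at 3.28 to 4.04 CPM in LAIR-1-deficient and 1.51 to 4.60 CPM in wild type libraries, on 12 to 42 counts.

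Textbook target genes held steady and variable genes side by side. Of 28 listed, 17 were tested and 0 passed, 10 positive and 7 negative, with a median of 0.05, which was -0.16 without LAIR-1-deficient mouse 1. Of these genes 7 of the 17 were highest in both mouse 1 libraries, 3 of them by over 2-fold in both genotypes. The shares over all tested genes were 11.9% and 0.470%. Irf4 was at 11.2, 1.96 and 2.05 CPM in LAIR-1-deficient and 6.68, 0.766 and 4.15 CPM in wild type mice. It rested on few counts, 78, 11 and 15 in LAIR-1-deficient and 53, 7 and 37 in wild type mice. Ccl4, a chemokine gene, was at 14.6, 3.56 and 2.60 CPM in LAIR-1-deficient and 9.21, 5.03 and 7.63 CPM in wild type mice. Other targets were level: Icam1, chosen after its values were seen, was at 60.3, 62.8 and 64.1 CPM in LAIR-1-deficient and 61.5, 56.5 and 59.6 CPM in wild type mice. The genes with the smallest p were Ccl5 and Cxcl10, with log2 fold changes of -0.31 and -0.55. Cxcl10 rested on 8 to 32 counts per library.

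Immediate early genes, which antigen receptor and stress signals induce within minutes, were the list in which mouse 1 stood out for every tested gene. All 17 tested of 20 listed were highest in both mouse 1 libraries, against 11.9% of all tested genes. By over 2-fold in both genotypes it was 11 of them, against 0.470% of all. The list was chosen with earlier results of these data known, and the pattern was not tested. Between genotypes 0 passed, with 12 positive and 5 negative and a median log2 fold change of 0.04. That median ran from -0.67 without LAIR-1-deficient mouse 1 to 0.62 without wild type mouse 1. Fosb was at 401, 29.2 and 74.6 CPM in LAIR-1-deficient and 260.4, 29.5 and 66.3 CPM in wild type mice. Nr4a1 exceeded the mean of mice 2 and 3 by 8.71-fold in LAIR-1-deficient and by 4.88-fold in wild type mouse 1, and Ier5, the gene with the smallest p, by 1.48-fold in LAIR-1-deficient and 1.45-fold in wild type mouse 1. The ratios of Nfkbia, Nfkbiz and Tnfaip3 lie inside this list's range in both genotypes.

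**Figure D4:**
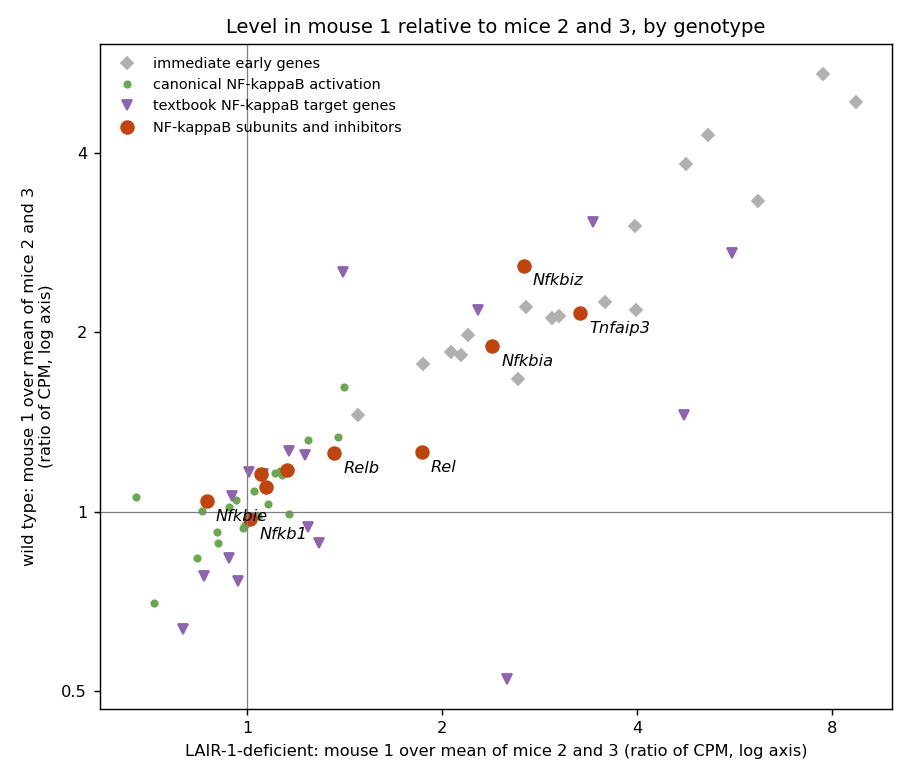
Ratio of the level in mouse 1 to the mean level of mice 2 and 3, in LAIR-1-deficient (horizontal) and wild type (vertical) cells, both on log axes, for the 10 genes and for tested genes of 3 other lists. Nfkbia, Nfkbiz and Tnfaip3 lie among the immediate early genes, with 2.39, 2.67 and 3.26 in LAIR-1-deficient and 1.90, 2.59 and 2.15 in wild type cells, while Nfkb1 is near 1.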

How the data were processed

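Raw counts per gene were deposited by the authors as whole numbers, 1 column per library, per the file headers. BWA, version not stated, and build mm10 are listed per the submitters' processing notes. Which annotation, counter and strand setting were applied, and whether identifiers of molecules were used, was not given in the sources used here. Per the labels' protocols, library preparation used primers of the Illumina small RNA kit (TruSeq). Columns were matched to mice by description and title. Of the table, 14515 gene rows were used and 4 spike-in rows, 0 to 4 counts per library, left out.

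Tests were run in R 4.3.3 with edgeR 4.0.16: filterByExpr (smallest count 10), TMM, robust quasi-likelihood F test, two-sided, no covariate, Benjamini-Hochberg over 9565 genes, threshold 0.05. P-values set the difference between genotypes against the spread between mice within a genotype. SEs were derived from the fold change and F. Alternatives used DESeq2 1.42.0 and limma 3.58.1 (voom). Log2 CPM used a prior count of 2. The fit was tested on simulated data. Gene coordinates and overlaps are from GENCODE vM21 (GRCm38), sequences from RefSeq.

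The 10 members and the lists were chosen with earlier results of these data known. Named are all members, Lair1, per pathway list the 2 genes with the smallest p and the 2 with the widest range, the 5 nearest profiles of the 3 members with the widest range, and marker genes; exceptions are said.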

Additional observations from a re-analysis of the deposited data

How the results depend on the processing

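Under all 15 alternatives 0 of the 10 members were called. Of their 150 recomputed fold changes 29 changed sign, all without a call. By scaling or tool, Nfkb1 moved to log2 fold changes of 0.00049 with RLE factors, 0.0090 with library totals and 0.0013 with DESeq2, and Nfkbiz to -0.0065 with mouse number as a replicate block. Without mouse 1 of both genotypes Rel, Nfkbiz and Tnfaip3 were at -0.11, -0.032 and -0.037, a setting chosen after seeing the data. With single libraries left out the log2 fold changes ranged from -0.014 to 0.013 (Nfkb1), -0.026 to 0.093 (Nfkb2), -0.22 to 0.48 (Rel), -0.00064 to 0.13 (Rela), -0.22 to 0.065 (Relb), -0.58 to 0.35 (Nfkbia), -0.043 to 0.13 (Nfkbib), -0.38 to -0.0031 (Nfkbie), -0.64 to 0.62 (Nfkbiz) and -0.51 to 0.78 (Tnfaip3). Members without overlap numbered 0 to 2 then, and 2 without mouse 1 of both genotypes. Groups separate more easily with fewer libraries, and the shares over all genes were not computed for these settings. Over all genes, 1 was called higher (Bcl9l) and 2 lower (Lair1 and Prdm16) with no filter, names chosen after their values were seen; 0 were called lower with the stricter filter, which removes Lair1, with limma-voom and without mouse 1 of both genotypes; leaving out single libraries gave 0 to 1 higher and 0 to 2 lower, with 0 lower without wild type mouse 1. The replicate block left 0 members and 1 gene called, and Nfkbia was then at -0.086 (unadjusted p = 0.342 in edgeR). The deviations of same-numbered mice correlated at 0.29, 0.01 and 0.07 for mice 1, 2 and 3. LAIR-1-deficient mouse 2 deviated most like wild type mouse 3 (0.18). Deviations were taken from each genotype's own mean, so these correlations depend on each other. Whether same-numbered mice shared a litter, batch or day was not tested. The labels give none, and the numbers were not taken as pairs.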
